A study of Mus musculus with 12 samples.

Results

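The genes described here are 10 genes that mark the 2 specialised cell types of the renal collecting duct, the principal cell and the intercalated cell. They were chosen by name: the 3 subunits of the epithelial sodium channel ENaC (Scnn1a, Scnn1b, Scnn1g) and the vasopressin V2 receptor (Avpr2) for principal cells, and 6 acid-base genes (Slc4a1, Slc4a9, Slc26a4, Atp6v1b1, Atp6v0d2, Foxi1) for intercalated cells. Of the 10, 9 had a row among the 50433 gene symbols of the tubular epithelial cell (TEC) table. Avpr2 lies on the X chromosome, and its expression was not analysed here.

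RNA-Seq was available for TECs and for neutrophils (PMN), each with 3 libraries from glutamine-treated and 3 from vehicle-treated mice. They were collected 24 hours after ischemia-reperfusion injury (IRI). Per the study's methods, the mice were wildtype C57BL/6J males of 8 to 12 weeks, and IRI was made by clamping the renal pedicles for 35 minutes. Glutamine was given intravenously as the dipeptide alanyl-glutamine at 0.5 g/kg body weight, and the vehicle was physiologic saline. The time of the injection is given as 4 hours after reperfusion in the study's results text. The legend of its TEC gene list gives 15 minutes. Which of them holds for these mice was not settled here. All 12 libraries came from injured mice, so the comparison is of glutamine with vehicle after IRI and not of injured with uninjured kidney.

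Principal cells take up sodium through ENaC in the apical membrane, a heteromer of an alpha, a beta and a gamma subunit, and they insert aquaporin 2 water channels when vasopressin binds its V2 receptor. Intercalated cells secrete acid or base: a vacuolar-type proton ATPase (V-ATPase) pumps protons across one membrane and an anion exchanger carries bicarbonate across the other. The forkhead transcription factor Foxi1 is required for intercalated cells to form and to express their V-ATPase subunits and anion exchangers.

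TECs had been sorted from kidney as CD45-negative, Prominin-1-positive cells. The proximal phosphate transporter Slc34a1 reached 1298 to 2711 CPM (counts per 1000000 counts, on TMM-scaled library sizes) over the 6 TEC libraries, Prom1 itself 64.6 to 83.5 CPM, and Ptprc, which encodes CD45, at most 2.74 CPM. The principal cell water channel Aqp2 was nevertheless measured at 65.0 to 225 CPM. The genes below were thus read at low to moderate depth in libraries rich in proximal tubule RNA. Other genes still exceeded Slc34a1 in some: the globin gene Hba-a2 in vehicle 5 (2565 against 2374 CPM) and glutamine 2 (3773 against 2595 CPM). The thick ascending limb gene Umod did so in vehicle 3 (1989 against 1318 CPM). In such bulk libraries, fewer cells of a type and less RNA per cell cannot be told apart.

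Promoter sequences are shown for 4 members, because Foxi1 is known to act on intercalated cell genes. They were also chosen by level: Scnn1b, Slc26a4 and Foxi1 were highest in glutamine 1 and Atp6v1b1 in glutamine 2. A relation between the sequences and these levels was not tested. Each run covers the 250 bases before and 50 bases after the RefSeq gene start on GRCm38.p6, 5′ to 3′ on the gene's own strand. Capitals mark the forkhead core motif TGTTTA, or TAAACA on the other strand, where it occurs. The first is Atp6v1b1 at chr6:83742767-83743066 (+ strand), followed by Slc26a4 at chr12:31559935-31560234 (− strand), Foxi1 at chr11:34208040-34208339 (− strand) and Scnn1b at chr7:121864788-121865087 (+ strand).
Atp6v1b1: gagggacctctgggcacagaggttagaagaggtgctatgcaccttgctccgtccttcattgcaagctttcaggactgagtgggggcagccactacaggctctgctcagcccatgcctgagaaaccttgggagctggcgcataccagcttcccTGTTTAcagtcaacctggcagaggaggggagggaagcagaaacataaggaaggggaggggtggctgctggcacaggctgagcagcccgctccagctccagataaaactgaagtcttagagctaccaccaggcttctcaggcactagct
Slc26a4: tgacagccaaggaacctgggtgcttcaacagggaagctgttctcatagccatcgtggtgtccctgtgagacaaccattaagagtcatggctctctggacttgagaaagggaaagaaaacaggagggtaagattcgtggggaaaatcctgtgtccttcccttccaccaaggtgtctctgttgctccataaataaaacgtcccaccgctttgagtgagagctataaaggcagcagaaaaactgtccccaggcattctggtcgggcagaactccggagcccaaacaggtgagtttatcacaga
Foxi1: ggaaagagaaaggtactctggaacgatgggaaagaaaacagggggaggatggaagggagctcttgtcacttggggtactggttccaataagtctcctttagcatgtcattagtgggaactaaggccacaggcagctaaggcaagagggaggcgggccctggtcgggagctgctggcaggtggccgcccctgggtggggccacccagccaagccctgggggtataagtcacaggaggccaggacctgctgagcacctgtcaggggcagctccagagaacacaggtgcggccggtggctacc
Scnn1b: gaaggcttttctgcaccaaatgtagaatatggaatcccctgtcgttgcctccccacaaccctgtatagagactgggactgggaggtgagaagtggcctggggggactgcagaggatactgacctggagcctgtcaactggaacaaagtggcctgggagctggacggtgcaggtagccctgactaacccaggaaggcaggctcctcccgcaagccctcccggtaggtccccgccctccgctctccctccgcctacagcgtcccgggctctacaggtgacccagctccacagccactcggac

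The forkhead core was found in the Atp6v1b1 promoter, 98 bases before the start, and not in the windows of Slc26a4, Foxi1, Scnn1b or Scnn1g. The window of the principal cell member Avpr2, not shown, held it 131 bases before the start. This core occurs in 13.4% of 32851 RefSeq promoters of the same length, so that a match here is a description of the letters and no evidence of binding. A further motif, the steroid receptor core AGAACA searched on both strands, was found in the Foxi1 promoter 23 bases after the start and in the Slc26a4 promoter 213 bases before it, but in neither the Scnn1b nor the Scnn1g promoter. The Avpr2 window held it 59 and 50 bases before the start. This motif occurs in 19% of all such promoters. No window shown holds both motifs, whereas the Avpr2 window does. The table held promoters for 5 of the 9 members measured.

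In the GENCODE annotation of GRCm38, Scnn1a spans chr6:125320659-125344943, Scnn1g chr7:121734479-121768475 and Scnn1b chr7:121865038-121918514, the last 2 being neighbours 96562 bases apart. Slc4a1 spans chr11:102348824-102366203 and Slc4a9 chr18:36528147-36556273. Slc26a4 spans chr12:31519827-31559969 and Foxi1 chr11:34204338-34208089. Atp6v1b1 spans chr6:83742990-83758855 and Atp6v0d2 chr4:19876841-19922605. All are protein-coding genes, and the exons of these 9 overlap no exon of another gene.

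Glutamine against vehicle gave no member that passed the threshold. Of the 9 members with a row, 7 passed the expression filter and were tested, and 0 of these 7 had an adjusted p below 0.05 in edgeR's quasi-likelihood test, as did 0 (0%) of the 14734 genes tested. Without adjustment, 1 of the 7, Atp6v1b1, fell below p of 0.05 in the same test, against 12.7% of all genes in either direction and 7.23% in the higher direction. For 0 of the 9 members did the CPM values of the 3 glutamine libraries lie apart from those of the 3 vehicle libraries, against 18.8% of all genes tested. DESeq2 called 308 genes in all and likewise 0 of the 7 members. Scnn1g and Slc4a1 did not pass the filter.

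**Figure D1:**
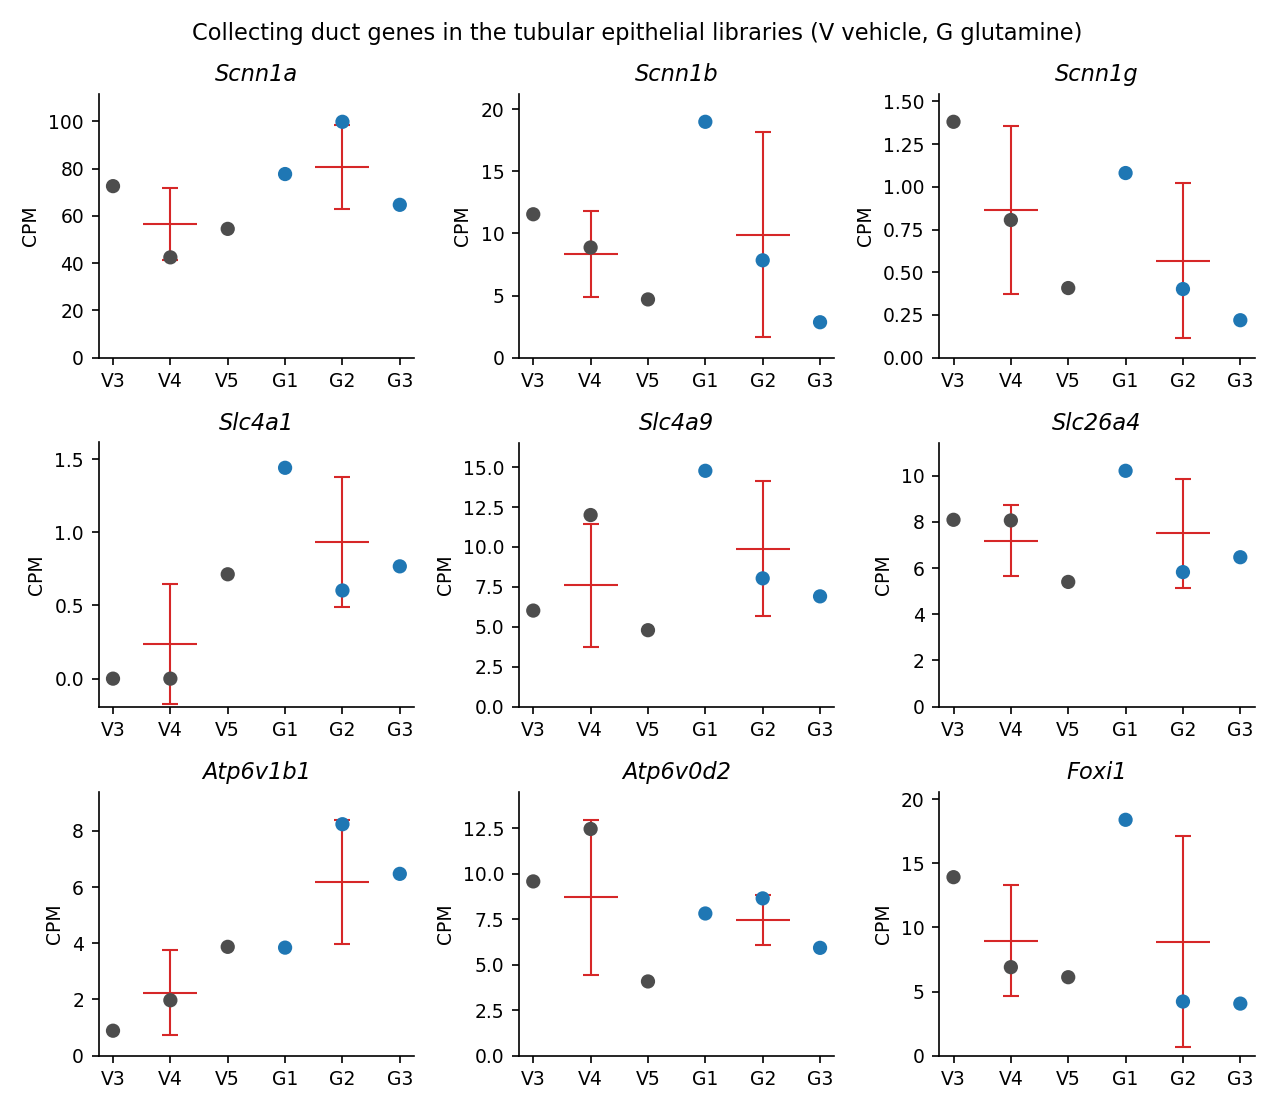
CPM of the 9 members in each TEC library (V, vehicle replicates 3 to 5; G, glutamine replicates 1 to 3), with the mean and SD of each group in red. The groups overlap in all 9 panels, and G1 is the highest library for Scnn1b, Slc4a1, Slc4a9, Slc26a4 and Foxi1.

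Among the ENaC subunits, the alpha subunit Scnn1a, which is needed for the channel to reach the membrane, had the most RNA. It stood at 72.6, 42.5 and 54.5 CPM in vehicle replicates 3, 4 and 5 and at 77.7, 99.8 and 64.7 CPM in glutamine replicates 1, 2 and 3. A glutamine library was above a vehicle library in 8 of the 9 possible pairs, and only vehicle 3 lay above a glutamine library. The means were 56.5 ± 15.2 CPM in vehicle and 80.8 ± 17.8 CPM in glutamine libraries (SD, n = 3 each). The log2 fold change of 0.51 (SE 0.26, 95% interval −0.05 to 1.08) did not pass edgeR's test (adjusted p = 0.432). Leaving out 1 library took it to between 0.33 (without glutamine 2) and 0.73 (without vehicle 3), and edgeR's unadjusted p was below 0.05 in 3 of the alternatives tried. Scnn1a rested on 474 to 736 counts per library, the deepest of the members, and its interval was the narrowest of the 7.

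The beta subunit Scnn1b behaved differently from library to library. It was measured at 11.5, 8.87 and 4.69 CPM with vehicle and at 19.0, 7.83 and 2.85 CPM with glutamine. The highest and the lowest of the 6 values were both glutamine libraries, replicates 1 and 3, which lay 6.66-fold apart, while the vehicle libraries spanned 2.46-fold. The log2 fold change was 0.24 (SE 0.60, 95% interval −1.07 to 1.56, edgeR adjusted p = 0.893), and it turned negative under some other settings.

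The gamma subunit Scnn1g was near the limit of detection. It had 14, 9 and 4 counts with vehicle and 9, 2 and 2 counts with glutamine, that is 0.865 ± 0.489 and 0.567 ± 0.454 CPM (SD, n = 3 each). It was not tested with the expression filter, and without the filter it did not pass edgeR's test (adjusted p = 0.872).

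Divided by transcript length (CPM per kb of merged exons), Scnn1a stood at 16.6 ± 4.81, Scnn1b at 3.47 ± 2.17 and Scnn1g at 0.239 ± 0.151 over all 6 TEC libraries (SD, n = 6). The order alpha, beta, gamma held in each of the 6 libraries. The ratio of Scnn1a to Scnn1b per kb was not constant: it was 4.01, 3.05 and 7.41 with vehicle and 2.61, 8.12 and 14.5 with glutamine, so that the glutamine group held both the lowest and the highest ratio.

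The anion exchangers were all low. Slc4a1 encodes band 3 (AE1), which the alpha-type intercalated cell uses in its basolateral membrane in a short form and which red blood cells carry in large amounts. It had 0, 0 and 7 counts with vehicle and 12, 3 and 7 counts with glutamine. The 2 vehicle libraries at 0 allow up to 0.296 CPM (replicate 3) and 0.269 CPM (replicate 4), taking 3 counts as the limit that a count of 0 leaves, which covers counting error only. The glutamine values were 1.44, 0.603 and 0.767 CPM against 0.713 CPM in vehicle 5, so the groups overlapped. Slc4a1 was not tested with the expression filter, and without the filter it did not pass edgeR's test (adjusted p = 0.640).

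Red cell RNA was present in the same libraries. The globin gene Hba-a2 ranged from 462 to 3773 CPM, and the summed level of 5 erythroid markers, a list chosen after values had been seen, ranged from 802 to 4396 CPM with vehicle and from 969 to 6709 CPM with glutamine. By library the sum was 1300, 802 and 4396 CPM with vehicle and 1599, 6709 and 969 CPM with glutamine. The vehicle library with the highest sum, replicate 5, was also the single vehicle library with Slc4a1 counts, while among the glutamine libraries the sum was highest in replicate 2 and Slc4a1 in replicate 1. Each of the 4 erythroid markers tested was higher with glutamine and 0 of them had an unadjusted p below 0.05 in edgeR's test. The part of red cell RNA in the Slc4a1 counts was not tested.

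Slc4a9 (AE4), a basolateral transporter of beta-type intercalated cells, stood at 6.02, 12 and 4.79 CPM with vehicle and at 14.8, 8.03 and 6.91 CPM with glutamine. Glutamine 1 was the highest library and vehicle 4 came next. The log2 fold change was 0.38 (SE 0.46, 95% interval −0.62 to 1.39, edgeR adjusted p = 0.753). Slc26a4 encodes pendrin, the apical chloride-bicarbonate exchanger of the same beta-type cells. It was the steadiest intercalated cell member, at 8.09, 8.06 and 5.40 CPM with vehicle and 10.2, 5.82 and 6.47 CPM with glutamine. Its log2 fold change was 0.07 (SE 0.40, 95% interval −0.80 to 0.94, edgeR adjusted p = 0.960).

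Neither V-ATPase subunit among the members passed the threshold. Atp6v1b1 encodes B1, the kidney and inner ear form of the pump's B subunit, whose loss in people causes distal renal tubular acidosis with deafness. It was measured at 0.888, 1.97 and 3.87 CPM with vehicle and at 3.84, 8.24 and 6.47 CPM with glutamine. The groups touched only where vehicle 5 met glutamine 1, and a glutamine library was above a vehicle library in 8 of 9 pairs. The means were 2.24 ± 1.51 and 6.18 ± 2.21 CPM (SD, n = 3 each), a ratio of 2.76. The log2 fold change of 1.45 (SE 0.62, 95% interval 0.10 to 2.81) was the largest among the 7 members and had an unadjusted p of 0.0381 in edgeR's test. After adjustment over all genes it was not called (edgeR adjusted p = 0.362, DESeq2 adjusted p = 0.234).

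The counts behind Atp6v1b1 were few, at 9, 22 and 38 with vehicle and 32, 41 and 59 with glutamine. Leaving out 1 library took the log2 fold change to between 1.07 and 2.09, and edgeR's unadjusted p rose to 0.0951 without vehicle 3, 0.0914 without vehicle 4, 0.124 without glutamine 2 and 0.0838 without glutamine 3, while it fell to 0.00958 without vehicle 5 and 0.0297 without glutamine 1. Per kb, B1 RNA was 0.445, 0.968 and 1.97% of that of its ubiquitous counterpart Atp6v1b2 (B2) in the vehicle libraries and 2.28, 4.82 and 4.44% in the glutamine libraries. The groups did not overlap on this ratio, in which the denominator differed too: Atp6v1b2 stood at 242, 246 and 238 CPM with vehicle and at 204, 207 and 177 CPM with glutamine (log2 fold change −0.31, edgeR adjusted p = 0.504). The ratio was computed after the CPM values had been seen and was not tested. In CPM, 18.8% of all genes tested lay apart in either direction, Atp6v1b2 among them and Atp6v1b1 not. No such share was computed for ratios.

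Atp6v0d2 encodes d2, a membrane-sector subunit found in kidney and osteoclasts. It stood at 9.57, 12.5 and 4.08 CPM with vehicle and at 7.81, 8.64 and 5.92 CPM with glutamine, and the glutamine values lay inside the vehicle range. The log2 fold change was −0.23 (SE 0.45, 95% interval −1.21 to 0.75, edgeR adjusted p = 0.860), and it was 0.12 without vehicle 4. Its share of the ubiquitous d1 subunit (Atp6v0d1) per kb was 7.68 ± 3.86% with vehicle and 6.90 ± 1.56% with glutamine (SD, n = 3 each). On this ratio the groups overlapped, at 3.33 to 10.7% with vehicle and 5.14 to 8.09% with glutamine.

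Foxi1 RNA had nearly the same mean in both groups. It was measured at 13.9, 6.90 and 6.11 CPM with vehicle and at 18.4, 4.22 and 4.06 CPM with glutamine. A high library stood above a pair of low ones in each group, and the glutamine group spanned 4.53-fold. The means were 8.97 ± 4.29 and 8.88 ± 8.22 CPM (SD, n = 3 each), with a log2 fold change of −0.0019 (SE 0.60, 95% interval −1.32 to 1.31). The interval leaves room for more than a doubling in either direction, so that equal means do not show equal levels. Atp6v1b1, a gene that depends on Foxi1 in intercalated cells, had its lowest value, of 9 counts, in vehicle 3, where Foxi1 had its highest vehicle value. Slc26a4 and Atp6v0d2 were not lowest there (8.09 and 9.57 CPM). A relation of these genes to Foxi1 was not tested.

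**Figure D2:**
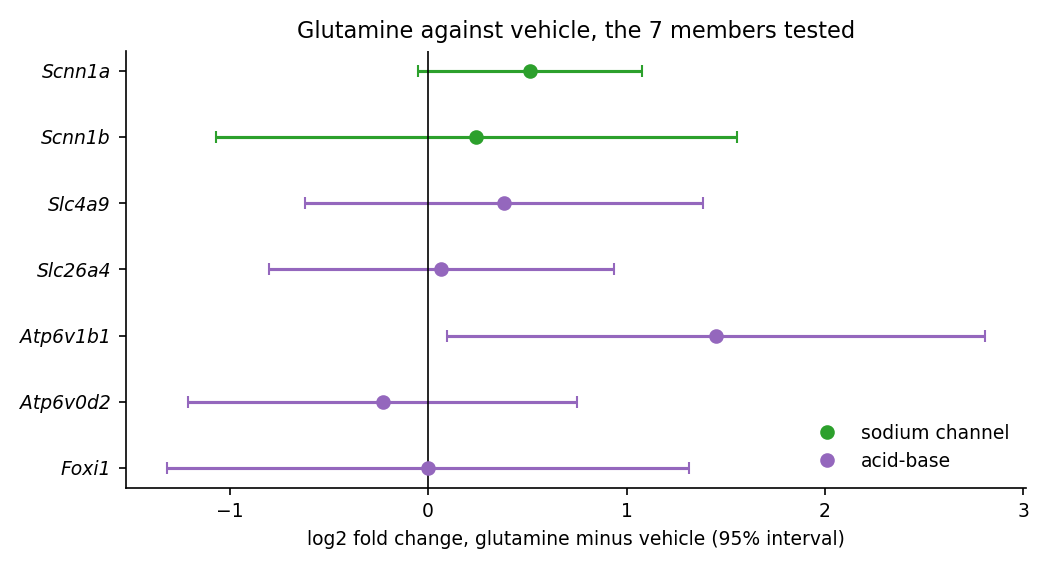
Log2 fold change of the 7 tested members, glutamine minus vehicle, with the 95% interval from edgeR. The interval of Atp6v1b1 (0.10 to 2.81) excludes 0 before adjustment, and the other 6 intervals include it.

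Ordered by RNA level per kb over the 6 TEC libraries, Scnn1a came first, above Foxi1 at 3.79 ± 2.49, Scnn1b, Atp6v0d2 at 2.97 ± 1.07, Slc26a4 at 2.36 ± 0.578, Slc4a9 at 1.37 ± 0.60, Atp6v1b1 at 0.962 ± 0.626, Scnn1g and Slc4a1 at 0.120 ± 0.111 CPM per kb (SD, n = 6). Scnn1a was above Foxi1 in all 6 libraries, and Slc26a4 above Slc4a9 in all 6. The other neighbours in this order changed places in at least 1 library: Foxi1 was above Scnn1b in 4 of 6, Scnn1b above Atp6v0d2 in 3, Atp6v0d2 above Slc26a4 in 4, Slc4a9 above Atp6v1b1 in 3, Atp6v1b1 above Scnn1g in 5 and Scnn1g above Slc4a1 in 4. Lengths are those of all annotated exons of a gene merged, and isoform use in these cells was not known.

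Sodium channel genes were compared with acid-base genes by the difference of their mean log2 CPM within each library, which cancels what a library adds to both. The difference was 1.67, 0.86 and 0.55 with vehicle and 0.77, 0.70 and −0.015 with glutamine. The group means were 1.03 ± 0.58 and 0.48 ± 0.43 (SD, n = 3 each), lower by 0.54 with glutamine, and the groups overlapped. The difference was −0.22 without vehicle 3 and −0.29 without glutamine 3. The mean of the sodium channel genes was nearly the same in both groups (2.94 ± 0.51 with vehicle and 2.93 ± 0.75 with glutamine, log2 CPM, n = 3 each), and that of the acid-base genes was 1.91 ± 0.11 and 2.45 ± 0.38. Since the members had been chosen with results known, no test was made of this difference. It weights Slc4a1 and Scnn1g, with few counts, as heavily as the others. With the acid-base genes that passed the filter alone it was −0.33, but Scnn1g, which did not pass either, was kept. The difference without both genes was not computed. In edgeR's fit, the median log2 fold change was 0.38 for the 2 sodium channel members tested and 0.07 for the 5 acid-base members tested. On summed CPM, the sodium channel genes ran from 52.1 to 85.5 with vehicle and 67.8 to 108.1 with glutamine, a sum led by Scnn1a, and the acid-base genes from 25.0 to 41.4 and 30.6 to 56.5.

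Several members shared a profile over the libraries that did not follow the groups. Glutamine 1 was the highest of all 6 libraries for 5 of the 9 members (Scnn1b, Slc4a1, Slc4a9, Slc26a4 and Foxi1), and the highest of the 3 glutamine libraries for 6. Among the vehicle libraries, replicate 5 was the lowest for 6 of the 9 members. Aqp2, which is no member, had a similar profile, at 141, 104 and 65.0 CPM with vehicle and 225, 88.2 and 73.0 CPM with glutamine. Scnn1a and Atp6v1b1 departed from it, both being highest in glutamine 2. Atp6v0d2 was highest in vehicle 4 and Scnn1g in vehicle 3. Slc4a1, Slc4a9 and Slc26a4 shared the profile only in part. Among the vehicle libraries, Slc4a1 had counts in replicate 5 alone, and Slc4a9 was highest in replicate 4. Slc26a4 was nearly level in vehicle 3 and 4 (8.09 and 8.06 CPM). It was higher in glutamine 3 than in glutamine 2 (6.47 against 5.82 CPM), where Scnn1b and Foxi1 were lower. How alike the profiles were was not computed, nor was the share of all genes highest in glutamine 1. Glutamine 2 was the shallowest TEC library, with 5397370 counts against 8674085 to 10223461 in the others.

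**Figure D3:**
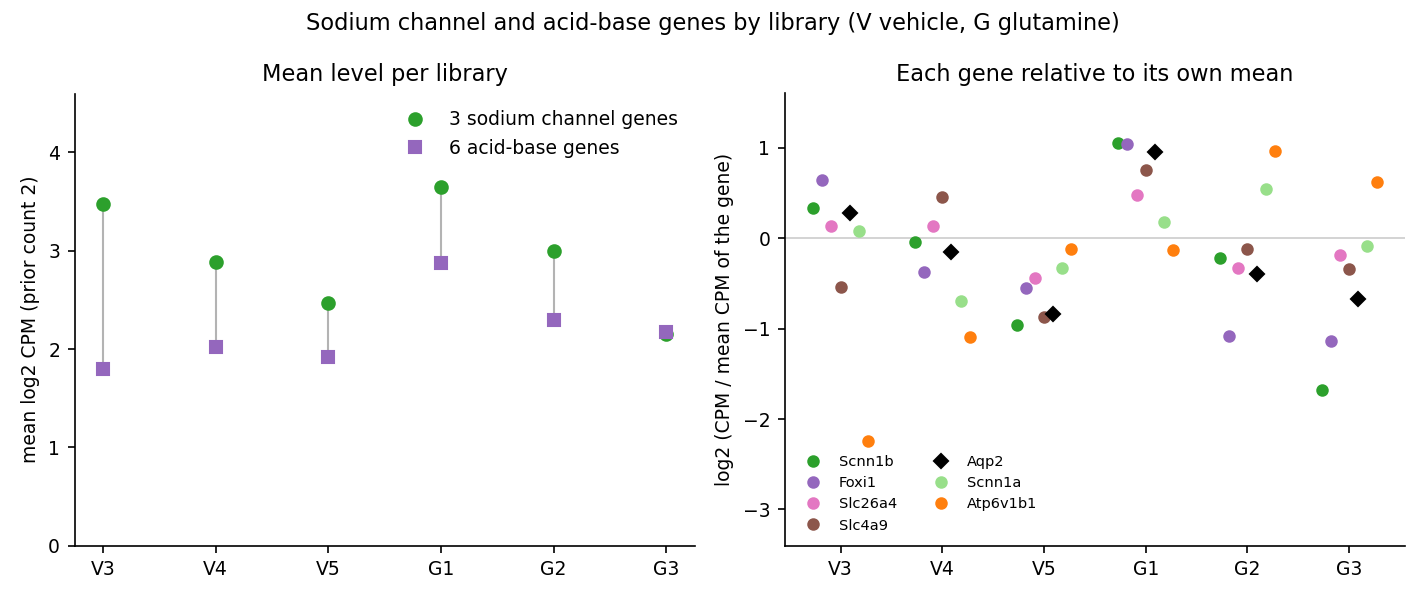
Left, mean log2 CPM of the 3 sodium channel and the 6 acid-base members in each TEC library; the gap is 1.67 in V3 and −0.015 in G3, its widest and narrowest. Right, log2 of each gene's CPM over its own mean, where Scnn1b, Foxi1, Slc26a4, Slc4a9 and Aqp2 are highest in G1 and Scnn1a and Atp6v1b1 in G2.

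Genes that work with the members in principal cells were looked at as a list. Of 12 tested, 8 were higher and 4 lower with glutamine, the median log2 fold change being 0.16, against 7454 of 14734 higher and a median of 0.01 over all genes. Kcnj16, a basolateral potassium channel subunit, was the single one with an unadjusted p below 0.05 in edgeR's test, with means of 69.6 ± 10.7 CPM in vehicle and 100.5 ± 9.18 CPM in glutamine libraries (SD, n = 3 each; log2 fold change 0.53, adjusted p = 0.329). Aqp2 (log2 fold change 0.32, edgeR adjusted p = 0.776) and Npnt, which encodes the matrix protein nephronectin (0.17, edgeR adjusted p = 0.786), were the other most abundant genes of the list. Their summed level was 225 to 376.9 CPM with vehicle and 300 to 464 CPM with glutamine. The highest library was vehicle 3 for 5 and glutamine 1 for 4 of the 12.

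Of 15 tested regulators of ENaC and of vasopressin signalling, 6 were higher and 9 lower with glutamine (median log2 fold change −0.06). Usp2, a deubiquitinase that can remove ubiquitin from ENaC subunits, stood at 21.8, 21.6 and 32.8 CPM with vehicle and at 41.8, 79.3 and 46.6 CPM with glutamine, and its groups did not overlap. Its log2 fold change was 1.13 (SE 0.30, edgeR unadjusted p = 0.00289), with an adjusted p of 0.217 in edgeR and 0.0311 in DESeq2. The aldosterone- and stress-induced kinase Sgk1, which keeps ENaC at the membrane, was the one most spread out: 221, 270 and 300 CPM with vehicle and 186, 383 and 924 CPM with glutamine (log2 fold change 0.92, edgeR adjusted p = 0.420). The protease Furin, which cleaves ENaC subunits, and Gnas, the G protein that couples the V2 receptor, were lower on average (log2 fold changes −0.18 and −0.47, edgeR adjusted p = 0.808 and 0.394). The Gnas groups did not overlap either, at 199 to 228 CPM with vehicle and 127 to 196.7 CPM with glutamine. In the whole list the groups lay apart for 2 genes in the higher and 2 in the lower direction: Usp2 and Prss8, and Gnas and Prkaca. That is 4 of 15, where 18.8% of all genes tested lay apart in either direction.

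Partners in intercalated cells were mostly higher with glutamine, though none passed adjustment in edgeR's test. Of 17 tested, 15 were higher and 2 lower, the median log2 fold change being 0.52, and 3 had an unadjusted p below 0.05 in edgeR's test, each of them higher, where 7.23% of all genes were. Among them were Aqp6, an intracellular anion-permeable aquaporin of acid-secreting cells (log2 fold change 1.26, edgeR adjusted p = 0.340), and Atp4a, the alpha subunit of the gastric-type proton-potassium ATPase (1.05, edgeR adjusted p = 0.387). The groups of both genes overlapped. The most abundant genes of the list were Tfcp2l1, a transcription factor of the collecting duct (log2 fold change 0.29, edgeR adjusted p = 0.547), and the carbonic anhydrases Car2 (0.00, edgeR adjusted p = 0.995) and Car15 (0.38, edgeR adjusted p = 0.649). The summed level of the list was 542 to 613 CPM with vehicle and 669 to 772 CPM with glutamine, without overlap. Gene by gene, the groups lay apart for 1 of the 17, where 18.8% of all genes tested lay apart in either direction. The sum of 4 sort and epithelial markers did not overlap either, at 273 to 335 CPM with vehicle and 337 to 535 CPM with glutamine.

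Markers of other nephron segments were mostly higher as well. Of 6 distal convoluted and connecting tubule markers, 6 were higher (median log2 fold change 0.70; Slc12a3, Pvalb and Calb1 had an unadjusted p below 0.05 in edgeR's test), with summed levels of 92.2 to 150 and 138 to 248 CPM. Of 4 thick ascending limb markers 4 were higher (median 0.35; Slc12a1), and of 12 proximal markers 9 were higher and 3 lower (median 0.48; Slc5a2, Slc22a6, Slc13a3, Slc7a13 and Slc4a4). Aqp1, a proximal water channel, was among the 3 that were lower (log2 fold change −0.73, edgeR adjusted p = 0.421), and Slc34a1 was higher (0.54, edgeR adjusted p = 0.425). Of the abundant distal genes, Umod, Cldn10 and Trpv5 had log2 fold changes of 0.14, 0.57 and 0.20. Of the genes of the sort, Prom1 had a log2 fold change of 0.19 (edgeR adjusted p = 0.709) and Ptprc, the gene sorted against, one of 1.13 at low level (edgeR adjusted p = 0.620). The epithelial genes Epcam and Cdh1, which the sort did not use, had 0.50 and 0.64 (edgeR adjusted p = 0.496 and 0.302; Cdh1 had an unadjusted p of 0.0195). Of 6 leukocyte markers tested 5 were higher and 1 lower (41 to 165 and 52 to 220 CPM; Lyz2 had an unadjusted p below 0.05, and the abundant S100a8, S100a9 and Csf1r had log2 fold changes of 0.79, 0.39 and −0.09), and of 6 endothelial and stromal markers 2 were higher and 4 lower (238 to 333 and 204 to 300 CPM; Pecam1 0.31, Kdr −0.07 and Cdh5 −0.30). Summed levels were 1046 to 2050 and 1297 to 2288 CPM for the thick ascending limb and 4251 to 6242 and 4693 to 6776 CPM for the proximal tubule. The same share of 7.23% of all genes applies to these counts of unadjusted p below 0.05. None of these genes had an edgeR adjusted p below 0.05, whereas DESeq2 called Slc7a13 (adjusted p = 0.00393) and Slc12a1 (adjusted p = 0.00978). The part of these other cell types in the intercalated cell values was not tested.

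The remaining V-ATPase subunits were split by whether they are kidney-type or ubiquitous. The 3 kidney-type ones outside the members, Atp6v0a4 (a4), Atp6v1c2 (C2) and Atp6v1g3 (G3), had log2 fold changes of 0.31, 0.71 and 0.11 (edgeR adjusted p = 0.647, 0.459 and 0.936). Of 14 ubiquitous subunits, 3 were higher and 11 lower, the median log2 fold change being −0.11 and 0 below an unadjusted p of 0.05 in edgeR's test. The most abundant of them were Atp6v0c, Atp6v1f and Atp6v1g1 (log2 fold changes 0.33, −0.15 and −0.17). Atp6v1g3 had vehicle values of 44.3, 31.4 and 14.8 CPM and glutamine values of 43.5, 37.8 and 16.7 CPM, again with wide spread inside each group. Whether the kidney-type subunits differed from the ubiquitous ones in their response was not tested.

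The neutrophil libraries served as a negative control. They held 20225246 to 21878446 counts, with the neutrophil genes S100a8 and S100a9 at 6511 to 26050 and 6708 to 21390 CPM (on total counts). Scnn1g, Slc4a1, Slc4a9, Slc26a4, Atp6v0d2 and Foxi1 had 0 counts in all 6 PMN libraries, which allows up to 0.137 to 0.148 CPM per library for counting error only. Genes outside the members also jumped between PMN libraries, as the ubiquitous V-ATPase subunit Atp6v1h did from 0 CPM in vehicle 3 to 248 CPM in vehicle 1, so that a count of 0 sets no firm limit on a gene's level in these cells. In TECs, all of these but Slc4a1 had counts in each of the 6 libraries.

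The other 3 members were not absent from PMN. For Scnn1a, the neutrophils of vehicle-treated mice held 3, 384 and 336 counts and those of glutamine-treated mice 314, 244 and 194, or 0.145 to 17.6 CPM, against 42.5 to 99.8 CPM in TECs. Scnn1b had 32 counts in glutamine 1 and 0 in the other PMN libraries. Atp6v1b1 had 308 counts in glutamine 2, or 14.9 CPM, and 0 in the other 5, so that the highest value of Atp6v1b1 in any of the 12 libraries was a neutrophil one. PMN and TEC values come from separate tables and are set side by side without a test.

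Kidney markers were seen in PMN too. The summed level of the proximal tubule markers was 86.1, 100.3 and 35.8 CPM in PMN glutamine 1, 2 and 3 and 25.1, 98.9 and 35.8 CPM in PMN vehicle 1, 2 and 3, lowest in the library with 3 Scnn1a counts. The thick ascending limb gene Umod reached 990 CPM in that same library, PMN vehicle 1, and 0.628 to 30.1 CPM in the other 5. Aqp2 stayed at or below 0.436 CPM in all 6 PMN libraries. The summed level of the principal cell partners ran from 0.385 to 79.3 CPM and that of the intercalated cell partners from 39.7 to 487 CPM. Both sums were highest in PMN vehicle 2, where Gata3 alone gave 59.4 CPM of the first and Adgrf5 alone 412 CPM of the second. The endothelial and stromal markers summed to 1447 CPM in PMN vehicle 2 and to 2.75 to 53.0 CPM in the other 5 PMN libraries, against 204 to 333 CPM in TECs. What Scnn1a counts in PMN come from was not tested.

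**Figure D4:**
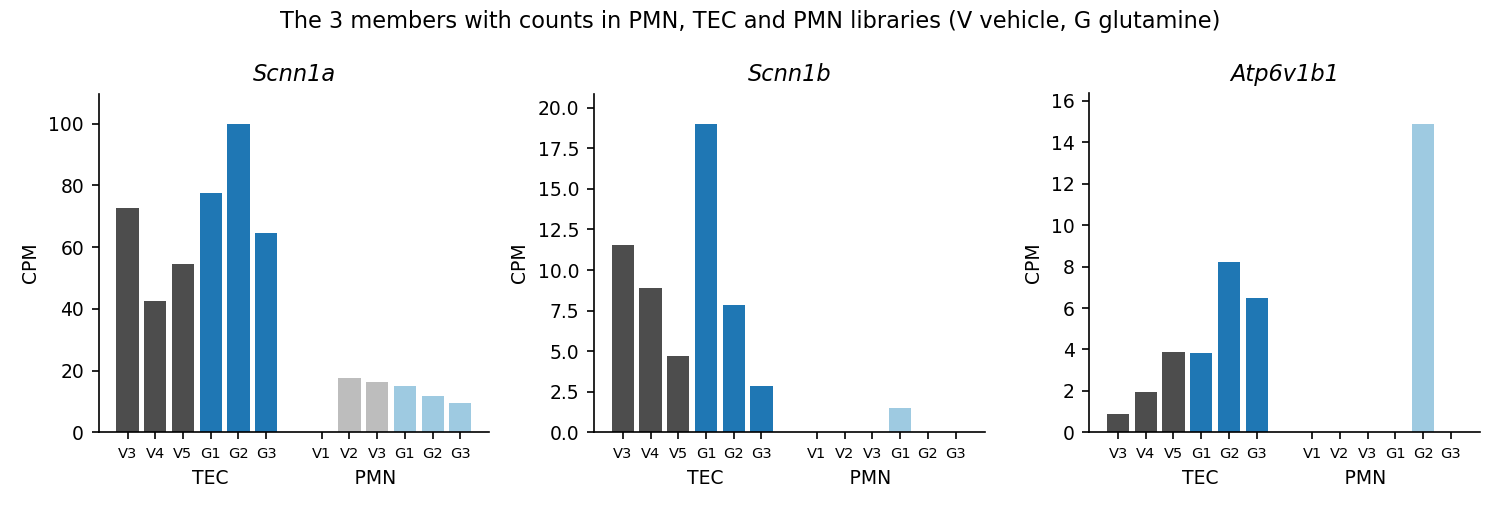
CPM of Scnn1a, Scnn1b and Atp6v1b1, the 3 members with counts in PMN, in 6 TEC libraries (TMM-scaled) and 6 PMN libraries (on total counts), vehicle (V) and glutamine (G). Scnn1a is present in 5 PMN libraries well above 0.145 CPM but below every TEC library, and Atp6v1b1 is seen in 1 PMN library at 14.9 CPM.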

How the data were processed

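For each cell type the authors deposited a table of unnormalized estimated counts by gene symbol. The submitters' processing notes name Trim Galore 0.6.4, Salmon 1.0.0 and the mm10 build; reads were single-end, 50 bases. The notes also name DESeq2. The deposited PMN table had been changed by a spreadsheet program: 3.2% of its cells carried extra points and 0.391% had become dates. They were decoded with the last point as the decimal, and its 2 columns per library were averaged as 1 replicate.

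Groups and replicate numbers were read from the sample labels. TEC libraries held 5397370 to 10223461 counts. Estimated counts were rounded and tested with edgeR 4.0.16 (R 4.3.3), using TMM scaling, the default expression filter, the quasi-likelihood test and Benjamini-Hochberg adjustment over 14734 genes, with 0.05 as threshold. DESeq2 1.42.0, limma-voom (limma 3.58.1), other normalizations and filters, removal of predicted, Rik and receptor genes, and leaving out each library were alternatives. Mean log2 CPM used a prior count of 2. Lengths and positions came from GENCODE M21 and promoters from RefSeq (GRCm38.p6).

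The members and lists were chosen with earlier results of these data known. All members are named; of other lists, each gene with an unadjusted p below 0.05 and the 3 most abundant, except 1 intercalated cell partner that is not reported here by name. Other genes named, such as Hba-a2, Prss8, Prkaca, Prkacb, Atp6v1h, Atp6v1b2, Atp6v0d1 and the markers of the sort and of neutrophils, were chosen after their values were seen. The labels do not say that libraries came from separate animals, so p-values measure the spread between these samples. No per-sample column was left unused.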

Additional observations from a re-analysis of the deposited data

Results flagged for a closer look

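Counts of 3 members in neutrophil libraries lay above 3 counts, the limit that a count of 0 leaves, in data outside the TEC comparison. For Scnn1a these were 314, 244 and 194 counts in PMN glutamine 1, 2 and 3 and 384 and 336 counts in PMN vehicle 2 and 3. For Scnn1b the value was 32 counts in PMN glutamine 1, and for Atp6v1b1 it was 308 counts in PMN glutamine 2. Scnn1a was above that limit in 5 of 6 PMN libraries and the others in 1 library each. Such jumps were not particular to these genes: Atp6v1h ran from 0 to 248 CPM, Prkacb from 0 to 55.9 CPM and Gnas from 0.194 to 176 CPM over the 6 PMN libraries. The deposited columns are 2 per library, and the counts given are their means.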

How the results depend on the processing

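No member was called under any of the alternatives. The number of all genes called was 0 in edgeR's main setting, 308 with DESeq2 and 425 without a filter on low counts, and 0 to 36 when a library was left out (36 without glutamine replicate 2, 4 without vehicle replicate 5). Of 91 member values under alternatives, 78 kept their direction and 13 were reversed. Foxi1 was 0.0042 with RLE scaling, 0.017 where genes needed 10 counts in each library and 0.063 once predicted, Rik and receptor genes were removed, and Scnn1b was −0.11 with limma-voom. With each library left out in turn, the log2 fold change ran from −1.11 to 0.45 for Foxi1, −0.67 to 0.69 for Scnn1b, −0.57 to 0.12 for Atp6v0d2, −0.22 to 0.21 for Slc26a4 and −0.031 to 0.87 for Slc4a9. The cause of these reversals was not tested. Adjusted p for Atp6v1b1 ran from 0.153 to 0.677 over its 12 alternatives, and at 10 counts in every library it was not tested. Without a filter, Scnn1g had a log2 fold change of −0.61 (edgeR adjusted p = 0.872) and Slc4a1 of 1.91 (edgeR adjusted p = 0.640). The difference of sodium channel and acid-base genes stayed negative, from −0.81 to −0.33, and from −0.78 to −0.22 without 1 library. Each of these settings kept Scnn1g, so they do not show whether the sign depends on that gene. No paired analysis was possible because replicate 3 is the single number that both TEC groups have. Counts per library were 0 to 158 for 8 of the 9 members and 474 to 736 for Scnn1a, which was not called either.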
